A study of Arabidopsis thaliana with 12 samples.

Results

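The class III peroxidase genes of Arabidopsis thaliana were followed in whole rosettes of 4 genotypes. Members were the rows of the deposited count table whose function text reads Peroxidase superfamily protein, peroxidase CA or peroxidase CB, which gave 69 genes of 33323. One of them, DOX1, is an alpha-dioxygenase and not a class III peroxidase, and it is kept because its text matches. The genotypes were the combined mutant jazDcdk8-1, the mutant jazD, the mutant cdk8-1 and the wild type Col-0, with 3 libraries each that the labels call biological replicates. The jazD line carries mutations in most of the JAZ repressor genes, and jazDcdk8-1 carries the same mutations together with cdk8-1, an insertion allele of CDK8. Each library was made from the pooled rosettes, without roots, of about 20 plants. Plants spent 18 days in peat, then another 7 days in soil, at 20 °C with 16 h light periods, and all genotypes shared a tray. The study asked how the loss of CDK8 changes the state of plants whose jasmonate defense is held high.

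Class III peroxidases are heme enzymes that plants secrete into the cell wall. They use hydrogen peroxide to couple phenolic compounds, which stiffens the wall and polymerises lignin, and some of them also release hydrogen peroxide during defense or loosen walls during growth. The family is large, many members lie next to a close copy, and single members are known mostly from roots, stems, vascular tissue or infected leaves. JAZ proteins repress the transcription factors of the jasmonate pathway, a hormone pathway for defense against insects and some pathogens. CDK8 is the kinase in a regulatory module of Mediator, the complex that connects transcription factors to RNA polymerase II.

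The gene pairs on which the results turn are near copies of each other. PRXCA (AT3G49110, chromosome 3, 18200587 to 18203265, plus strand) and PRXCB (AT3G49120, chromosome 3, 18207651 to 18210333, plus strand) are annotated in RefSeq as cell wall peroxidases that act in cell elongation and may generate hydrogen peroxide in defense. Their coding sequences were 90.7% identical, with a longest shared run of 111 bases. Prx37 (AT4G08770, chromosome 4, 5598037 to 5600398, minus strand), annotated as an apoplastic peroxidase of vascular bundles whose overexpression dwarfs the plant, and its neighbour AT4G08780 (chromosome 4, 5604105 to 5608290, plus strand) were 93.8% identical over their coding sequences, with a longest shared run of 101 bases. The last 120 coding bases of both pairs, from RefSeq TAIR10.1, show how few bases separate the copies. Capitals mark the positions at which a gene differs from its partner, 7 in the pair of PRXCA and PRXCB and 4 in the pair of Prx37 and AT4G08780. The stretches lie at chr3:18202772-18202891 (PRXCA, plus strand), chr3:18209922-18210041 (PRXCB, plus strand), chr4:5598259-5598378 (Prx37, minus strand) and chr4:5608083-5608202 (AT4G08780, plus strand), all within exons.
PRXCA coding end: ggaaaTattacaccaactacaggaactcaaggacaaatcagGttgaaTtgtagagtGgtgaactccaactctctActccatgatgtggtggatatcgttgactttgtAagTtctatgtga
PRXCB coding end: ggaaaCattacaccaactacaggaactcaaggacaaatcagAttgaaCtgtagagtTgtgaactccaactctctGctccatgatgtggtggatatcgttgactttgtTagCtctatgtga
Prx37 coding end: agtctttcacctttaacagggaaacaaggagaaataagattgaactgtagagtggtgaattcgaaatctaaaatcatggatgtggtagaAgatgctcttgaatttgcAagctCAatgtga
AT4G08780 coding end: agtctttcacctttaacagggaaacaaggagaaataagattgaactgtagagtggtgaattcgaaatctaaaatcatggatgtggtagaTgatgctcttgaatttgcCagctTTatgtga

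Upstream of the gene starts the copies were less alike. Over the 250 bases before the RefSeq gene start, PRXCA and PRXCB were 51.6% identical, and Prx37 and AT4G08780 were 52.8% identical. The windows of PRXCA (chr3:18200337-18200586, plus strand) and PRXCB (chr3:18207401-18207650, plus strand) are printed because these neighbours moved in opposite directions in cdk8-1 against Col-0. Those of AT5G39580 (chr5:15849142-15849391, minus strand) and PRX71 (AT5G64120, chr5:25661008-25661257, minus strand) are printed because both genes were higher in jazD and both windows hold the letters TTGAC 3 times. The windows of PRX72, which was lower in jazD, and of AT4G26010, which was not tested, also hold them 3 times. Capitals mark TTGAC, the core of the element bound by WRKY factors, or its reverse complement GTCAA. The window of PRXCA holds neither.
PRXCA upstream: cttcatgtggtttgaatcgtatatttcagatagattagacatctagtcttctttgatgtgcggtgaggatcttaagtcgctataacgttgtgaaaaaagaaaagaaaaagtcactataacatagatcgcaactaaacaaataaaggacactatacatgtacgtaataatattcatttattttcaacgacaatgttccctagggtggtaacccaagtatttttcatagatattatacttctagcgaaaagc
PRXCB upstream: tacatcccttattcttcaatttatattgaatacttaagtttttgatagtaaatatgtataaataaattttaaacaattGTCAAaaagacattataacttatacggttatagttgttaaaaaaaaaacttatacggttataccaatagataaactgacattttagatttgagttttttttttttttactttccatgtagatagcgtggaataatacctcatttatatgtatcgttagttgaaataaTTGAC
AT5G39580 upstream: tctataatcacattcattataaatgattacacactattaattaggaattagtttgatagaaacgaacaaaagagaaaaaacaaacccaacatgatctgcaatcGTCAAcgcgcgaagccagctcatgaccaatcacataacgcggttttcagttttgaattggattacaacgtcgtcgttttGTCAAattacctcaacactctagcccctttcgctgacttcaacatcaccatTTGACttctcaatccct
PRX71 upstream: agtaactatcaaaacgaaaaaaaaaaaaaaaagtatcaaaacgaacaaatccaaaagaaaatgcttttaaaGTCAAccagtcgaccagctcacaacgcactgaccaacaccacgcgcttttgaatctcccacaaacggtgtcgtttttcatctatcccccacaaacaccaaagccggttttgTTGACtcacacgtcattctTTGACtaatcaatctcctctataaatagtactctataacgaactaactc

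TTGAC was found in 28 of the 69 member windows (40.6%), against 44.9% of the windows of 27443 protein-coding genes. CACGTG, the G-box letters that MYC factors of the jasmonate pathway bind, was in 3 member windows (4.35%), against 6.49% of all. GCCGCC, a core of the GCC box bound by ERF factors, was in 2 member windows (2.9%), against 1.87% of all, and 1 of those windows is that of AT4G08780. All 3 motifs were searched on both strands, a match of CACGTG can share an end base with a match of another motif, and a match only describes the letters of the window.

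The libraries held 17583467 to 21030374 counts each, and 19059 genes passed the filter on low counts and were tested. CDK8 (AT5G63610) had 49, 69 and 71 counts in the jazDcdk8-1 libraries and 388, 409 and 339 in the jazD libraries, with 46, 53 and 55 in cdk8-1 against 335, 370 and 406 in Col-0, so it was 6.53-fold lower in jazDcdk8-1 than in jazD and 7.32-fold lower in cdk8-1 than in Col-0. The tissue label was set against marker genes. Over 4 leaf genes, summed TPM (the deposited unit, which scales for gene length and library size) was 41219 to 42810 in jazDcdk8-1, 34417 to 37653 in jazD, 47883 to 49752 in cdk8-1 and 42549 to 45290 in Col-0. Over 11 root genes it was 2.86 to 4.5 in all libraries, and CASP5, EXPA7 and EXPA18 were at 0 counts throughout. Over 6 floral genes it was 0.99 to 1.71 in jazDcdk8-1, 0.56 to 0.75 in jazD, 0.73 to 1.49 in cdk8-1 and 1.18 to 2.25 in Col-0. The 3 CESA genes of secondary walls summed to 10.8 to 12.1 TPM in jazDcdk8-1, 9.07 to 10.3 in jazD, 12.4 to 14 in cdk8-1 and 12.6 to 15.1 in Col-0. In bulk rosettes, fewer cells of a type and less RNA per cell cannot be told apart.

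Of the 69 members, 32 passed the filter on low counts. The other 37 did not: 9 had no count in any library, and 28 had between 1 and 73 counts over the 12 libraries together. A mean of at least 1 TPM was reached by 25 members, of at least 10 TPM by 13 and of at least 100 TPM by 3. Those 3 were PRXR1 (AT4G21960) with a mean of 2178 TPM over the 12 libraries, PRXCB with 321 TPM and AT1G71695 with 166 TPM. PRXR1 alone held 74% of the members' TPM and PRXCB 10.9%. A rosette's peroxidase transcripts thus came for the most part from a single gene.

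Summed over all members, TPM was 3797 ± 112 in jazDcdk8-1, 3527 ± 85.3 in jazD, 2266 ± 69 in cdk8-1 and 2181 ± 76.8 in Col-0 (SD, n = 3 each). The sum was higher in both genotypes with the JAZ mutations than in both without them, with no overlap between libraries. Without PRXR1 the sums were 939 ± 38.2 in jazDcdk8-1, 1021 ± 115 in jazD, 570 ± 19.5 in cdk8-1 and 530 ± 15 in Col-0, so the step was not made by PRXR1 alone. Of these sums, PRXCB held a mean of 497 TPM in jazDcdk8-1, 413 in jazD, 224 in cdk8-1 and 152 in Col-0. PRXR1 had 2764, 2906 and 2903 TPM in the jazDcdk8-1 libraries, 2522, 2472 and 2525 in jazD, 1762, 1655 and 1670 in cdk8-1, and 1698, 1675 and 1580 in Col-0. On the CPM scale (counts scaled by library size, with TMM scaling between libraries) it was 1.60-fold higher in jazD than in Col-0 (log2 0.68 ± 0.04 SE, adjusted p = 6.01e-11) and 1.65-fold higher in jazDcdk8-1 than in Col-0 (log2 0.72 ± 0.04, adjusted p = 5.52e-11). Its log2 difference between cdk8-1 and Col-0 was -0.05 ± 0.04 and that between jazDcdk8-1 and jazD was 0.04 ± 0.04, neither past the threshold. The second depended on the processing: it passed in an alternative fit, and the TPM values of jazDcdk8-1 and jazD did not overlap. AT3G28200, with 47.3, 47.05 and 49.3 TPM in jazDcdk8-1, 44.35, 45.95 and 42.45 in jazD, 47.8, 49.7 and 54.8 in cdk8-1, and 50.2, 48 and 53.1 in Col-0, was called in no comparison. On the CPM scale its jazDcdk8-1 and Col-0 libraries did not overlap (log2 -0.15 ± 0.06, edgeR adjusted p = 0.0669). Calls against Col-0 depended on the processing, as jazDcdk8-1 and jazD each passed in an alternative fit.

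**Figure D1:**
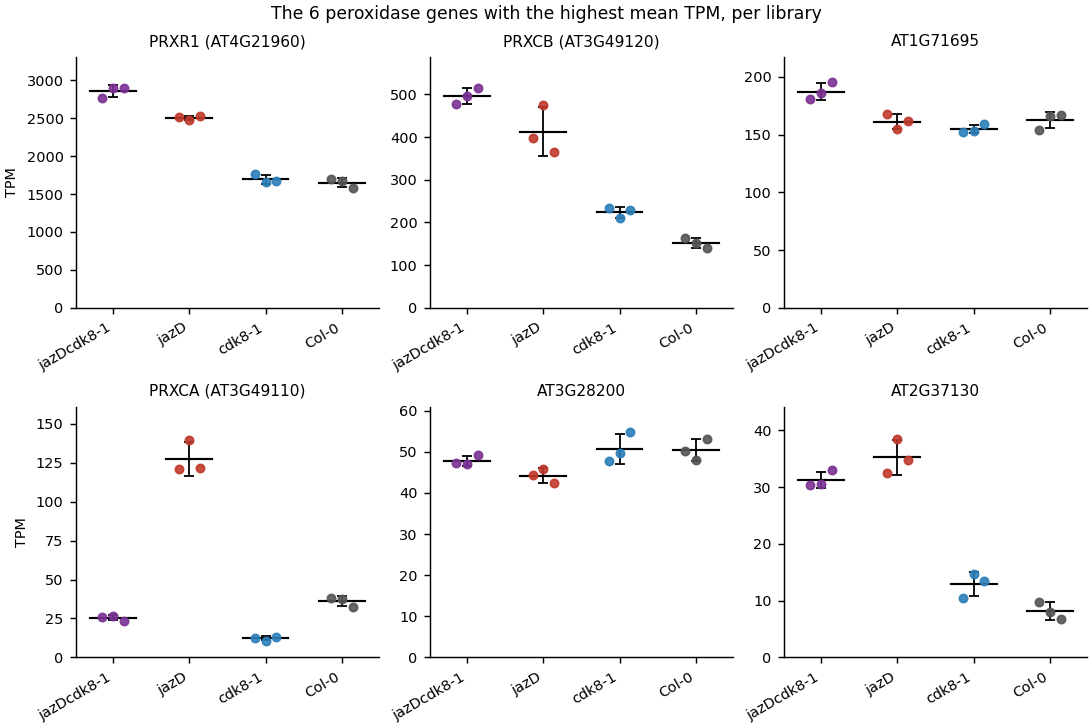
TPM of the 6 members with the highest mean TPM, in each of the 3 libraries (points) of jazDcdk8-1, jazD, cdk8-1 and Col-0, with the mean (line) and SD (bar) of each genotype on linear axes that start at 0. PRXR1 lies between 2472 and 2906 TPM in the 6 libraries with the JAZ mutations and between 1580 and 1762 TPM in the other 6, while AT3G28200 overlaps in jazDcdk8-1 and Col-0.

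Among the 32 tested members, 13 rose and 3 fell in jazD against Col-0, with 16 not called (adjusted p below 0.05, edgeR). Over all tested genes 21.8% rose and 20.9% fell, so the members' rises lie above that background and their falls below it. At least 2-fold changes were called for 10 members upward and 1 downward, where 4.29% and 2.28% of all genes passed. Among them AT4G08780 and AT5G39580 (upward) and PRX72 (downward) passed the filter only through a genotype in which they were high. In jazDcdk8-1 against jazD, 2 members rose and 11 fell, where 16.9% of all genes rose and 19% fell. The members' rises lie below that background and their falls above it. The falls were 7 of 27 when members that passed the filter only through genotypes in which they were high were left out. At least 2-fold, 1 rose and 9 fell, where 1.56% and 4.46% of all genes passed. These falls include AT4G08780, AT5G39580, AT4G33420 and AT3G49960, which passed the filter only through genotypes in which they were high. With other scalings the split was 5 rises and 11 falls (total counts), or 8 rises and 10 falls (limma on log2(TPM + 1) and on log2(TPM + 0.1)). The median member log2 difference was 0.17 for jazD against Col-0 and -0.31 for jazDcdk8-1 against jazD, and the median of all tested genes was 0.00 in both. These are values of members that passed the filter and are given as a description.

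In cdk8-1 against Col-0, 5 members rose and 10 fell, where 11.7% of all genes rose and 13.8% fell, and the member median was -0.19. Total counts gave 7 rises and 8 falls, limma on log2(TPM + 1) gave 7 and 8, and limma on log2(TPM + 0.1) gave 7 and 7. At least 2-fold, 2 rose and 7 fell, against 0.992% and 2.47% of all genes. These falls include AT4G33420 and PRX72, which passed the filter only through Col-0. In jazDcdk8-1 against Col-0, 11 rose and 9 fell, where 16.3% and 16.1% of all genes did, and the member median was 0.08. Rises and falls both lie above the background. The effect of cdk8-1 differed between the jazD and the Col-0 background for 7 members, 1 upward and 6 downward, where 8.16% and 8.39% of all genes were called. That difference is the log2 change of jazDcdk8-1 against jazD minus the log2 change of cdk8-1 against Col-0. In either direction, 16 of the 32 members were called in jazD against Col-0, with 42.8% of all genes called, and 13 in jazDcdk8-1 against jazD, with 35.8% of all genes called, so the total shares of members in these 2 comparisons lie near the background. In cdk8-1 against Col-0, 46.9% of the tested members were called, against 25.5% of all genes. In jazDcdk8-1 against Col-0 the shares were 62.5% and 32.4%, so in both the members lie above the background. Comparisons that share the libraries of a genotype are not independent of each other. Of the 32 members, 5 passed the filter only through the libraries of a genotype in which they were high: AT4G08780 and AT5G39580 through jazD, PRX72 and AT4G33420 through Col-0, and AT3G49960 through Col-0 and jazD. Such genes had to differ between genotypes. Among the other 27 members, 11 rose and 2 fell in jazD against Col-0, where 21.8% and 20.9% of all genes did. In jazDcdk8-1 against jazD, 2 rose and 7 fell, where 16.9% and 19% did, so these falls lie nearer the background. In cdk8-1 against Col-0, 5 rose and 8 fell, where 11.7% and 13.8% did. In jazDcdk8-1 against Col-0, 10 rose and 6 fell, where 16.3% and 16.1% did. The shares of all genes were not recomputed without genes that passed the filter in this way.

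**Figure D2:**
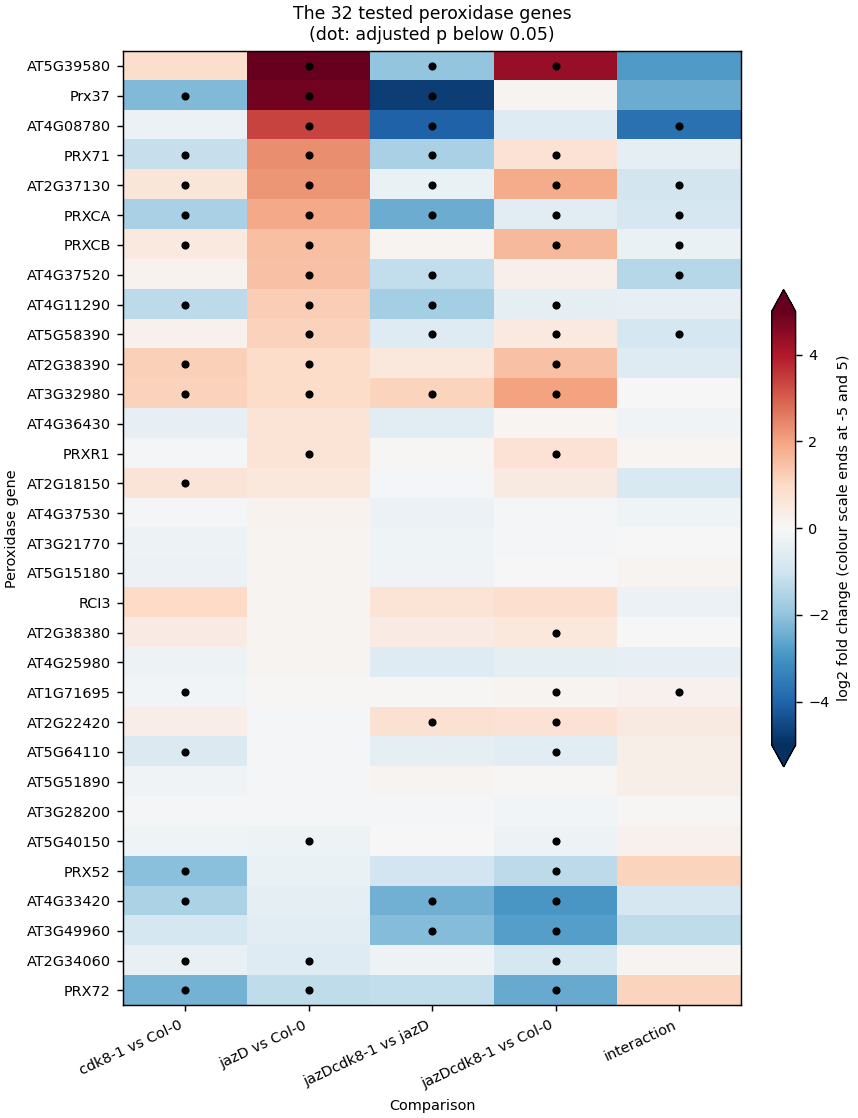
Log2 fold change of the 32 tested members (rows, ordered by jazD against Col-0) in 4 comparisons and in the difference of the cdk8-1 effect between backgrounds (columns). Red is higher and blue lower in the first-named genotype, the colour scale ends at -5 and 5, and dots mark an adjusted p below 0.05. The upper rows are red for jazD against Col-0 and mostly blue for jazDcdk8-1 against jazD.

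PRXCA and PRXCB, which the same RefSeq notes describe as wall peroxidases of elongation and defense, both rose in jazD. With the cdk8-1 mutation PRXCA fell in either background, whereas PRXCB rose in the Col-0 background and was not called in the jazD background. PRXCA had 27.9, 28.7 and 24.6 CPM in the jazDcdk8-1 libraries and 145, 162 and 144 in jazD, with 13, 11.7 and 14 in cdk8-1 and 43.5, 41 and 36.7 in Col-0. All 4 genotypes were apart, in the order jazD, Col-0, jazDcdk8-1 and cdk8-1 from high to low. It was 3.73-fold higher in jazD than in Col-0 (log2 1.90 ± 0.07, adjusted p = 1.72e-15), 5.57-fold lower in jazDcdk8-1 than in jazD (log2 -2.48 ± 0.07, adjusted p = 1.05e-16) and 3.12-fold lower in cdk8-1 than in Col-0 (log2 -1.64 ± 0.08, adjusted p = 7.42e-12). The fall with cdk8-1 was larger in the jazD background by 0.84 ± 0.11 on the log2 scale (a difference of -0.84, adjusted p = 1.92e-05). In jazDcdk8-1 it stayed 1.49-fold below Col-0 (adjusted p = 3.85e-06).

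PRXCB had 498, 511 and 516 CPM in jazDcdk8-1 and 459, 530 and 416 in jazD, with 231, 221 and 229 in cdk8-1 and 180, 159 and 153 in Col-0. The libraries of jazDcdk8-1 and jazD overlapped, and both lay above all others. It was 2.86-fold higher in jazD than in Col-0 (log2 1.52 ± 0.07, adjusted p = 9.83e-14), 1.39-fold higher in cdk8-1 than in Col-0 (log2 0.47 ± 0.07, adjusted p = 2.11e-05) and 3.11-fold higher in jazDcdk8-1 than in Col-0 (adjusted p = 7.38e-14). Between jazDcdk8-1 and jazD the log2 difference was 0.12 ± 0.07 (adjusted p = 0.174). PRXCA therefore made up 5.10%, 5.12% and 4.37% of the TPM of the pair in jazDcdk8-1 and 23.3%, 22.7% and 25% in jazD, with 5.14%, 4.85% and 5.54% in cdk8-1 and 18.9%, 19.9% and 18.8% in Col-0. The shares of the genotypes with cdk8-1 lay below those with a working CDK8 without overlap. Each of the 2 differences in mean share, -18.8 percentage points between jazDcdk8-1 and jazD and -14 between cdk8-1 and Col-0, gave p = 0.1 in an exact two-sided permutation test, which is the smallest p that 3 against 3 libraries allow. No member had a count that was not whole in the deposited table, although 3.423% of all values were not whole. How reads that match both copies were divided was not tested.

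**Figure D3:**
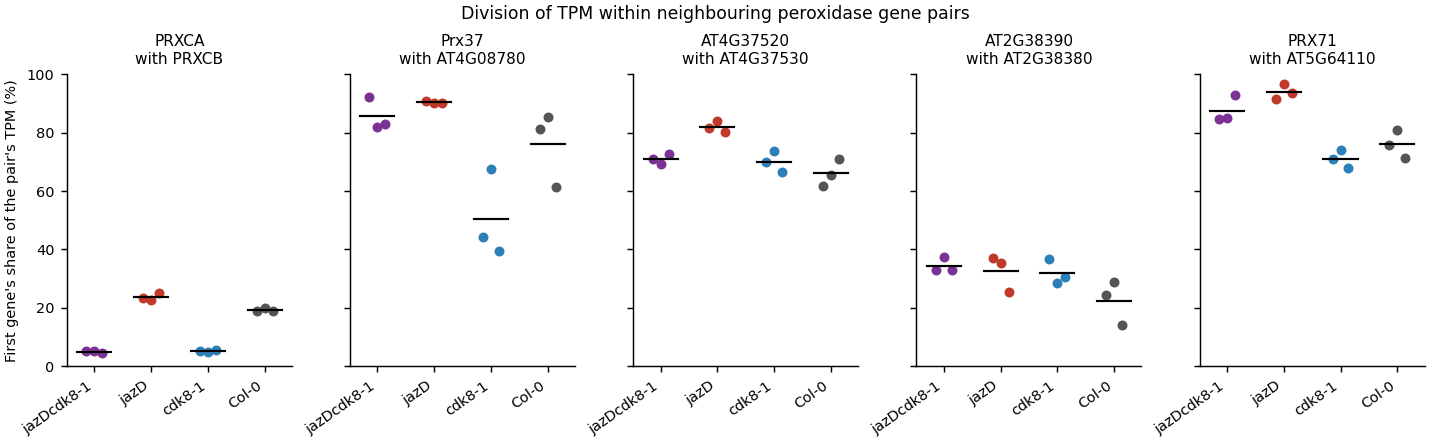
Share of the summed TPM of a neighbouring gene pair that the first-named gene holds, in percent, for 5 pairs in jazDcdk8-1, jazD, cdk8-1 and Col-0 (points are libraries, lines are means). For PRXCA with PRXCB the share is 4.37% to 5.54% in the 6 libraries with cdk8-1 and 18.8% to 25% in the other 6.

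Prx37 and AT4G08780 were high in jazD and close to the level of Col-0 in jazDcdk8-1. Prx37 had 1.61, 0.813 and 1.71 CPM in jazDcdk8-1 and 25.2, 52.5 and 29.2 in jazD, with 0.349, 0.258 and 0.192 in cdk8-1 and 1.14, 1.81 and 0.8 in Col-0. It stood high in the 3 jazD libraries and low in the other 9. Among those 9, its jazDcdk8-1 libraries overlapped with Col-0 and lay above all cdk8-1 libraries, a difference that was not tested. It was 28.5-fold higher in jazD than in Col-0 (log2 4.84 ± 0.28, adjusted p = 9.36e-12) and 26.0-fold lower in jazDcdk8-1 than in jazD (log2 -4.70 ± 0.28, adjusted p = 2.01e-11). Its fall in cdk8-1 against Col-0 (log2 -2.21 ± 0.72, adjusted p = 0.0274) was lost without Col-0 replicate 1 or 2 or any 1 of the cdk8-1 libraries, with an adjusted p of up to 0.134. The difference of the cdk8-1 effect between backgrounds was -2.49 ± 1.04 and did not pass (adjusted p = 0.112), and without jazD replicate 2 it was -2.11 and passed (adjusted p = 0.0189).

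AT4G08780 had 0.111, 0.143 and 0.278 CPM in jazDcdk8-1 and 2.02, 4.52 and 2.55 in jazD, with 0.349, 0.103 and 0.24 in cdk8-1 and 0.208, 0.251 and 0.4 in Col-0. Again only the jazD libraries were high, and the gene was tested only because they reached the filter, which favoured a rise in jazD. The gene was 10.4-fold higher in jazD than in Col-0 (log2 3.38 ± 0.39, adjusted p = 3.56e-07) and 16.3-fold lower in jazDcdk8-1 than in jazD (log2 -4.03 ± 0.42, adjusted p = 1.39e-07), and the effect of cdk8-1 differed between backgrounds (log2 -3.73 ± 0.83, adjusted p = 0.00331). Its annotated span shares 143 bases with that of AT4G08790, and its coding sequence is nearly that of Prx37, so its low counts are uncertain.

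PRX71 is annotated as a wall-bound peroxidase of lignification, and also in the defense response to fungi and the respiratory burst. AT5G39580 is annotated in the defense response to fungi. They are each other's nearest relatives at 77.8% coding identity and lie on different parts of chromosome 5. PRX71 had 14.7, 11 and 22.2 CPM in jazDcdk8-1 and 37.6, 71.1 and 38.2 in jazD, with 3.79, 5.12 and 4.23 in cdk8-1 and 10.2, 12.2 and 7 in Col-0. The jazD libraries were the highest and the cdk8-1 libraries the lowest. It was 5.03-fold higher in jazD than in Col-0 (log2 2.33 ± 0.24, adjusted p = 6.14e-08), 3.07-fold lower in jazDcdk8-1 than in jazD (log2 -1.62 ± 0.22, adjusted p = 5.43e-06) and 2.24-fold lower in cdk8-1 than in Col-0 (log2 -1.16 ± 0.32, adjusted p = 0.0109, 0.069 without Col-0 replicate 2). Its call between jazDcdk8-1 and Col-0 (log2 0.71 ± 0.26, adjusted p = 0.0414) rested on overlapping libraries. It was lost without Col-0 replicate 1 or 3, without jazDcdk8-1 replicate 1 or 3, with DESeq2 and with limma on log2(TPM + 1), with an adjusted p of up to 0.319.

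AT5G39580 had 50 counts over the jazDcdk8-1 libraries, 182 over jazD, 4 over cdk8-1 and 2 over Col-0. Per library these were 0.501, 0.239 and 1.67 CPM in jazDcdk8-1 and 2.34, 5.45 and 1.66 in jazD, so jazDcdk8-1 replicate 3 reached the lowest jazD library. With 2 counts in Col-0 the ratio of jazD to Col-0 was 96.9 with a 95% exact counting interval of 26.4 to 806, and that of jazDcdk8-1 to Col-0 was 24.5 with an interval of 6.43 to 208, both covering counting error only. Both differences were called (adjusted p = 2.78e-06 and 0.00388), the second not without jazDcdk8-1 replicate 3 (log2 3.19, adjusted p = 0.0515) or with limma on log2(TPM + 1) (adjusted p = 0.056). The gene was 3.88-fold lower in jazDcdk8-1 than in jazD (log2 -1.96 ± 0.47, adjusted p = 0.00238), a call that DESeq2 did not make, and the log2 difference was -3.13 without jazDcdk8-1 replicate 3. AT5G39580 was tested only because its jazD libraries reached the filter, which favoured a rise in jazD and a fall from it.

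One jazD library stood out in several of these genes. In jazD replicate 2, Prx37 was 1.93 times, AT4G08780 1.98 times, AT5G39580 2.73 times, PRX71 1.88 times and AT4G37520 1.71 times the mean of the other 2 jazD libraries. These are 5 of the 13 members that rose in jazD, whereas 4.25% of all genes that rose in jazD exceeded a ratio of 1.5 in that library. Without jazD replicate 2, the log2 rise in jazD against Col-0 was 4.44 for Prx37, 2.96 for AT4G08780, 5.65 for AT5G39580, 1.96 for PRX71 and 1.16 for AT4G37520, and every one of these 5 was still called. The falls in jazDcdk8-1 against jazD were then -4.31, -3.61, -1.29, -1.25 and -0.92 in the same order of genes, with the highest adjusted p at 0.0384 for AT5G39580.

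**Figure D4:**
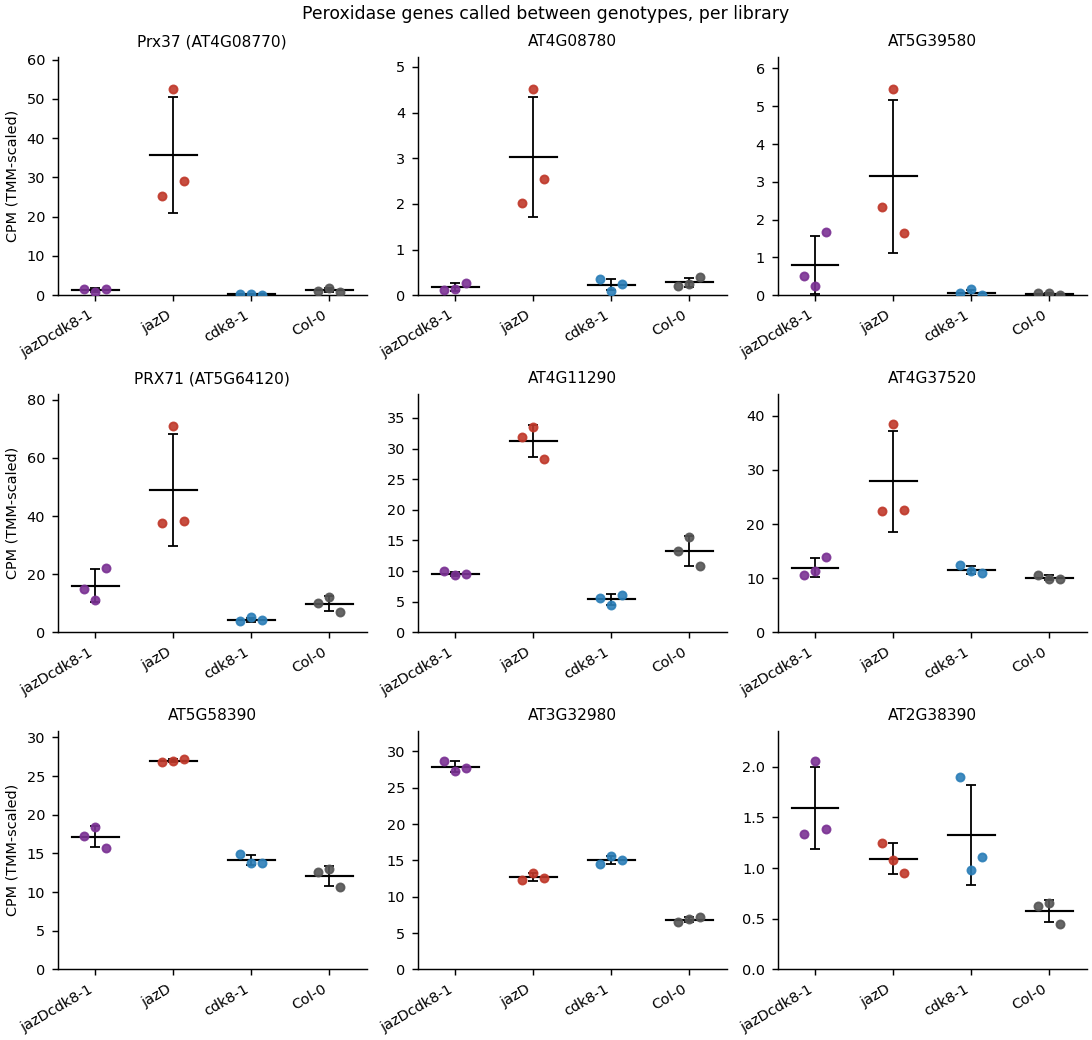
CPM of 9 called members in each of the 3 libraries (points) of jazDcdk8-1, jazD, cdk8-1 and Col-0, with the mean (line) and SD (bar), on linear axes that start at 0 and differ between panels. The jazD mean is the highest in 7 panels, at 25.2 to 52.5 CPM for Prx37, whereas AT3G32980 is highest in jazDcdk8-1 at 27.3 to 28.7 CPM.

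A further group rose in jazD by smaller factors. AT4G11290 had 9.96, 9.33 and 9.49 CPM in jazDcdk8-1 and 31.9, 33.5 and 28.3 in jazD, with 5.64, 4.39 and 6.15 in cdk8-1 and 13.3, 15.6 and 10.8 in Col-0. Like PRXCA it was lower with the cdk8-1 mutation in either background: 3.26-fold in jazDcdk8-1 against jazD (log2 -1.71 ± 0.11, adjusted p = 6.42e-11) and 2.45-fold in cdk8-1 against Col-0 (log2 -1.29 ± 0.13, adjusted p = 1.81e-07). It rose 2.36-fold in jazD (adjusted p = 3.19e-09) and was 1.38-fold lower in jazDcdk8-1 than in Col-0 (adjusted p = 0.00428, lost with limma on TPM), and the cdk8-1 effects in the 2 backgrounds differed by -0.42 ± 0.17, which did not pass (adjusted p = 0.113). AT4G37520 had 10.6, 11.3 and 13.9 CPM in jazDcdk8-1 and 22.4, 38.6 and 22.6 in jazD, with 12.4, 11.4 and 10.9 in cdk8-1 and 10.6, 9.84 and 9.9 in Col-0. Here the cdk8-1 mutation lowered the gene in the jazD background (log2 -1.23 ± 0.15, adjusted p = 1.88e-06), its log2 difference in the Col-0 background was 0.19 ± 0.17 (adjusted p = 0.461), and the 2 effects differed by -1.42 ± 0.23 (adjusted p = 0.000199). Its neighbour AT4G37530, with 92.4% coding identity, was called in no comparison.

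AT5G58390 had 17.3, 18.5 and 15.7 CPM in jazDcdk8-1 and 26.9, 27 and 27.2 in jazD, with 14.9, 13.8 and 13.8 in cdk8-1 and 12.7, 13.1 and 10.6 in Col-0. It rose 2.23-fold in jazD against Col-0 (adjusted p = 1.42e-10) and was 1.58-fold lower in jazDcdk8-1 than in jazD (adjusted p = 6.33e-07), still 1.42-fold above Col-0 (adjusted p = 7.4e-05). It lies between 17 and 24 Mb of chromosome 5, a stretch with 6.72% of the tested genes but 42 of the 83 called lower in jazD by 4-fold or more. Of the members, 4 lie there and only AT5G58390 and AT5G51890 were tested, and without them 12 members rose and 3 fell in jazD. AT2G37130, annotated in the defense response to fungi, had 32.8, 32.6 and 34.3 CPM in jazDcdk8-1 and 38.8, 44.6 and 41.2 in jazD, with 10.8, 16.2 and 14.1 in cdk8-1 and 11.1, 8.63 and 7.6 in Col-0. It was high in both genotypes with the JAZ mutations: 4.57-fold above Col-0 in jazD (log2 2.19 ± 0.11, adjusted p = 1.31e-12) and 3.65-fold above Col-0 in jazDcdk8-1 (log2 1.87 ± 0.12, adjusted p = 6.25e-11). In cdk8-1 it rose against Col-0 (log2 0.59 ± 0.13, adjusted p = 0.00179), with overlapping libraries, and in jazDcdk8-1 it fell 1.25-fold against jazD (adjusted p = 0.0128). That call was lost without jazD replicate 2 (adjusted p = 0.0512) and with both limma fits on TPM (log2 -0.17, adjusted p of up to 0.303).

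Another set of members was higher in jazDcdk8-1 than in Col-0 without a fall against jazD. AT3G32980, which shares 84.4% of its coding sequence with PRXCB, had 28.7, 27.3 and 27.7 CPM in jazDcdk8-1 and 12.3, 13.3 and 12.6 in jazD, with 14.5, 15.7 and 15.1 in cdk8-1 and 6.49, 6.87 and 7.15 in Col-0. No genotypes overlapped. The cdk8-1 mutation raised it 2.19-fold in the jazD background (log2 1.13 ± 0.07, adjusted p = 2.16e-11) and 2.20-fold in the Col-0 background (log2 1.14 ± 0.08, adjusted p = 6.69e-10), a difference of -0.01 ± 0.10 (adjusted p = 0.963). It was 1.86-fold higher in jazD than in Col-0 and 4.07-fold higher in jazDcdk8-1 than in Col-0 (adjusted p = 1.07e-08 and 5.82e-15). AT2G22420 had 4.45, 4.45 and 5.28 CPM in jazDcdk8-1 and 2.67, 2.51 and 3.26 in jazD, with 2.84, 4.19 and 3.79 in cdk8-1 and 3.68, 2.56 and 2.45 in Col-0, and rose 1.69-fold in jazDcdk8-1 against jazD (adjusted p = 0.00223) and 1.64-fold against Col-0 (adjusted p = 0.00373). AT2G38390 had 1.33, 2.06 and 1.39 CPM in jazDcdk8-1 and 1.25, 1.08 and 0.948 in jazD, with 1.9, 0.982 and 1.1 in cdk8-1 and 0.623, 0.652 and 0.45 in Col-0. It was 2.77-fold higher in jazDcdk8-1 than in Col-0 (adjusted p = 0.00106) and 2.30-fold higher in cdk8-1 than in Col-0 (adjusted p = 0.00883, 0.0803 without cdk8-1 replicate 1), and its rise in jazD (log2 0.92 ± 0.34, adjusted p = 0.0332) was lost in 6 of 21 alternatives, among them without Col-0 replicate 1 or 3 and jazD replicate 1 or 2. AT2G38380, its neighbour with 90.6% coding identity, was called once, 1.45-fold higher in jazDcdk8-1 than in Col-0 (adjusted p = 0.045), and that call was lost with DESeq2 and without any 1 of 7 libraries.

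Several members of low abundance were lower in mutants than in Col-0. PRX72 (AT5G66390) had 0.223, 0 and 0.185 CPM in jazDcdk8-1, 0.327, 0.491 and 0.118 in jazD, 0.0998, 0.258 and 0.0961 in cdk8-1, and 0.623, 1.15 and 0.6 in Col-0. Every mutant library was below every Col-0 library, and the gene was tested only because its Col-0 libraries reached the filter. The fall was called in jazDcdk8-1 (log2 -2.53 ± 0.59, adjusted p = 0.0023), in cdk8-1 (log2 -2.36 ± 0.58, adjusted p = 0.00428) and, with loss under 7 alternatives, in jazD (log2 -1.28 ± 0.50, adjusted p = 0.0448). PRX52 (AT5G05340) was 2.46-fold lower in jazDcdk8-1 (adjusted p = 0.024, lost in 5 alternatives) and 4.23-fold lower in cdk8-1 (adjusted p = 0.00269) than in Col-0, with 0.278, 0.239 and 0.509 CPM in jazDcdk8-1, 0.49, 0.835 and 0.711 in jazD, 0.0499, 0.207 and 0.336 in cdk8-1, and 1.09, 0.953 and 0.55 in Col-0.

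AT4G33420 had 0, 0.143 and 0.278 CPM in jazDcdk8-1 and 0.871, 1.33 and 0.178 in jazD, with 0.299, 0.465 and 0.384 in cdk8-1 and 1.24, 1.15 and 1.05 in Col-0. It was 7.47-fold lower in jazDcdk8-1 than in Col-0 (log2 -2.90 ± 0.58, adjusted p = 0.000565, log2 -3.79 without jazDcdk8-1 replicate 3), and its fall against jazD (log2 -2.41 ± 0.63, adjusted p = 0.00449) was -1.82 and no longer called without jazD replicate 2 (adjusted p = 0.0509) and -3.31 without jazDcdk8-1 replicate 3. In cdk8-1 against Col-0 it fell by 1.57 on the log2 scale (adjusted p = 0.0196, lost without Col-0 replicate 1, cdk8-1 replicate 1 or cdk8-1 replicate 3 and with limma on log2(TPM + 0.1)). Its span shares 78 bases with BAK1, and it was tested only because its Col-0 libraries reached the filter. AT3G49960, with 0.111, 0.0478 and 0.0926 CPM in jazDcdk8-1, 0.218, 0.442 and 0.533 in jazD, 0.249, 0.465 and 0.24 in cdk8-1, and 0.675, 0.602 and 0.5 in Col-0, was 4.52-fold lower in jazDcdk8-1 than in jazD (adjusted p = 0.00731) and 6.71-fold lower than in Col-0 (adjusted p = 0.000533). AT2G34060 had 4.17, 4.35 and 5.09 CPM in jazDcdk8-1, 5.61, 4.96 and 5.68 in jazD, 4.99, 7.18 and 7.35 in cdk8-1, and 7.58, 8.78 and 8.75 in Col-0. It was 1.84-fold lower in jazDcdk8-1 (adjusted p = 3.77e-05) and 1.55-fold lower in jazD (adjusted p = 0.000702) than in Col-0, and its fall in cdk8-1 (log2 -0.36, adjusted p = 0.045) was lost in 12 of 21 alternatives. AT5G64110, next to PRX71, was 1.67-fold lower in cdk8-1 than in Col-0 (adjusted p = 0.00711), with 1.7, 1.96 and 2.21 CPM in cdk8-1 and 3.58, 3.16 and 3.1 in Col-0. In jazD it had 3.76, 2.8 and 2.84 CPM, overlapping with Col-0, whereas PRX71 was 5.03-fold higher in jazD than in Col-0. Its call in jazDcdk8-1 against Col-0 (log2 -0.51, adjusted p = 0.0427) was lost in 9 of 21 alternatives.

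The members were also grouped by the roles they are known for. Of 7 members tied to the oxidative burst and to pathogens, 5 were tested (PRXCA, PRXCB, AT2G37130, AT5G39580 and Prx37). Each rose at least 2-fold in jazD against Col-0, with a median log2 of 2.19 (0.00 over all genes), and 4 of them fell in jazDcdk8-1 against jazD, PRXCB being the exception. Of all genes, 4.29% rose at least 2-fold in jazD and 19% fell in jazDcdk8-1 against jazD. AT5G39580 was tested only because its jazD libraries reached the filter, which favoured both its rise and its fall in these counts. The RefSeq note of Prx37 holds no defense term, and AT4G36430, annotated in the response to other organisms but not listed, was not called (log2 0.68 in jazD, adjusted p = 0.115). Of 7 members tied to lignin and wall stiffening, 4 were tested (AT2G22420, PRX52, PRX71 and PRX72). In jazD 1 of them, PRX71, rose and 1, PRX72, fell. PRX71 is also annotated in the defense response to fungi and the respiratory burst. In cdk8-1 against Col-0 3 fell, with a median log2 of -1.62 over the 4, where 13.8% of all genes fell. PRX72 was tested only because its Col-0 libraries reached the filter, which favoured its falls. The fall of PRX71 was lost without Col-0 replicate 2 (adjusted p = 0.069). AT5G51890, annotated in the lignification of tracheary elements of roots but not listed, was not called in cdk8-1 against Col-0 (log2 -0.16, adjusted p = 0.156). The CESA sums given above were also lowest in jazD, and their part in these changes was not tested. None of the genes listed for root hairs or for pollen and seed was tested. AT3G49960, annotated as enriched in root hair cells but not listed, was tested. Its falls in jazDcdk8-1 against jazD and against Col-0 are given above. Of 2 genes listed for cold and light-grown shoots, PRXR1 rose in jazD, and RCI3, a cold-inducible peroxidase with 0.667 to 0.88 CPM in jazDcdk8-1 and 0.35 to 0.519 in Col-0, was called in no comparison.

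The remaining members changed little or rarely. AT1G71695, the third most abundant, had 187, 191 and 195 CPM in jazDcdk8-1, 193, 172 and 184 in jazD, 150, 161 and 159 in cdk8-1, and 168, 173 and 181 in Col-0, and its 3 calls were all of 1.16-fold or less and were each lost in 5 to 7 alternatives. AT5G40150 had a log2 difference of -0.27 in jazDcdk8-1 and of -0.27 in jazD against Col-0 (adjusted p = 0.0232 and 0.017), both lost without Col-0 replicate 3. AT2G18150 was 1.57-fold higher in cdk8-1 than in Col-0 (adjusted p = 0.0379) and lost that call in 8 of 21 alternatives. Apart from RCI3, AT3G28200 and AT4G37530, the members called nowhere were AT3G21770, AT4G25980, AT4G36430, AT5G15180 and AT5G51890. AT5G51890 had 18.2, 18.3 and 19.4 CPM in jazDcdk8-1 and 15.6, 18.5 and 19.7 in Col-0.

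Some members below the filter had counts that differed between genotypes. PER4 had 4, 1 and 2 counts in jazDcdk8-1 and 12, 23 and 6 in jazD, with 4, 3 and 3 in cdk8-1 and 3, 3 and 3 in Col-0. AT5G64100, the third gene of the cluster of PRX71, had 9, 3 and 10 counts in jazDcdk8-1 and 9, 19 and 10 in jazD, with 0, 2 and 2 in cdk8-1 and 2, 1 and 0 in Col-0. PRX25 (AT2G41480) went the other way, with 0, 1 and 1 counts in jazDcdk8-1 and 2, 1 and 6 in jazD, against 8, 4 and 8 in cdk8-1 and 21, 10 and 11 in Col-0. AT3G03670 had 0 counts in jazDcdk8-1 and 1, 7 and 4 in jazD, and 1 count in Col-0. When no filter was applied, PER4, AT5G64100 and AT3G03670 were called higher (adjusted p = 0.00125, 5.61e-05 and 0.0334) and PRX25 lower (adjusted p = 0.003) in jazD against Col-0, and PER4 and AT3G03670 lower in jazDcdk8-1 against jazD (adjusted p = 0.000429 and 0.00866). DOX1 had 22 counts in jazDcdk8-1, of which 19 were in replicate 3, and 9 in jazD.

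Within the family, 24 members lie in 11 clusters whose gene starts are at most 20 kb apart. Of these 24, 14 were tested, 8 rose in jazD against Col-0, where 21.8% of all genes did, and 6 fell in jazDcdk8-1 against jazD, where 19% did. Both counts include AT4G08780, which was tested only because its jazD libraries reached the filter. In the pair of AT4G37520 and AT4G37530, AT4G37520 held 70.9%, 69.3% and 72.9% of the TPM in jazDcdk8-1 and 81.6%, 84% and 80.3% in jazD, with 66.4% to 73.6% in cdk8-1 and 61.7% to 70.9% in Col-0. In that of Prx37 and AT4G08780, Prx37 held 81.9% to 92.3% in jazDcdk8-1 and 90.2% to 91% in jazD, with 39.6% to 67.5% in cdk8-1 and 61.5% to 85.4% in Col-0, on few counts outside jazD. Some copies had few counts or none: AT1G05240 and PRX2 have identical coding sequences and had 14 and 4 counts in all, and AT2G18140, with 92% identity to AT2G18150, had none. Whether reads of AT1G05240 and PRX2 can be told apart was not tested. The annotated spans of 11 members overlap another gene, and the strand setting of the counting is not given in the sources used here.

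Other genes of hydrogen peroxide and lignin chemistry were counted beside the members. Of 10 NADPH oxidase genes, whose products make the superoxide from which apoplastic hydrogen peroxide forms, 2 were tested. RBOHD, the main one of leaf defense, had 77.6, 75.2 and 78.7 CPM in jazDcdk8-1 and 181, 198 and 174 in jazD, with 45.5, 38.4 and 42.1 in cdk8-1 and 43.2, 40.9 and 36.2 in Col-0. It was 4.60-fold higher in jazD than in Col-0 (log2 2.20 ± 0.07, adjusted p = 7.23e-17) and 2.39-fold lower in jazDcdk8-1 than in jazD (log2 -1.26 ± 0.06, adjusted p = 9.75e-13), while its log2 difference between cdk8-1 and Col-0 was 0.07 ± 0.07 (adjusted p = 0.534). RBOHF was lower than in Col-0 in jazD (log2 -0.27 ± 0.08, adjusted p = 0.0107, 0.0868 without jazD replicate 1) and in cdk8-1 (log2 -0.35 ± 0.08, adjusted p = 0.00336, lost with both limma fits at up to 0.119).

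Of 17 laccase genes, which oxidise monolignols without peroxide, 10 were tested. In jazD against Col-0, 2 rose and 6 fell, where 21.8% and 20.9% of all genes did. In jazDcdk8-1 against jazD, 5 rose and 1 fell, where 16.9% and 19% of all genes did, so the rises in jazD are near the background. LAC1 rose 2.36-fold in jazD against Col-0 (adjusted p = 0.000174) and fell 1.70-fold in jazDcdk8-1 against jazD (adjusted p = 0.0085), and LAC3 did the reverse, 2.58-fold lower and 2.83-fold higher (adjusted p = 0.0206 and 0.0126). The fall of LAC3 in jazD was lost without Col-0 replicate 3, without jazD replicate 1 or 3 and with limma on log2(TPM + 1), with an adjusted p of up to 0.281. LAC17, a lignin laccase of stems, fell 1.62-fold in jazD against Col-0 (adjusted p = 1.55e-06) and rose 1.27-fold in jazDcdk8-1 against jazD (adjusted p = 0.0058). LAC2 was 4.44-fold lower in jazDcdk8-1, 2.99-fold lower in jazD and 3.66-fold lower in cdk8-1 than in Col-0 (adjusted p = 1.11e-05, 0.000131 and 5.47e-05). All 17 genes of monolignol synthesis were tested, none changed 2-fold, and 4 rose and 6 fell in jazD against Col-0, while 3 rose and 5 fell in jazDcdk8-1 against jazD, with the rises near the shares of all genes just given. Of 18 genes for the removal of hydrogen peroxide inside cells, 16 were tested, and 7 rose and 4 fell in jazD against Col-0, with 2 rising and 5 falling in jazDcdk8-1 against jazD, and here the falls in jazD and the rises in jazDcdk8-1 are near those shares. Among them the catalase CAT3 rose (log2 1.40) and the catalase CAT2 fell (log2 -0.89) in jazD against Col-0.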

How the data were processed

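Whole-rosette RNA of 12 libraries, 3 per genotype, was analysed from the deposited tables. Per the submitters' processing notes, the authors ran RSEM 1.2.25 on TAIR10 and deposited expected counts and TPM. The aligner, strand setting and annotation release are not given in the sources used here. Names and coordinates come from RefSeq TAIR10.1, where all 69 members were found.

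The deposited expected counts, rounded, entered edgeR 4.0.16 (R 4.3.3). TMM scaling and filterByExpr left 19059 genes for one quasi-likelihood model of 12 libraries. P-values were adjusted by Benjamini-Hochberg over all tested genes within a comparison, and genes were called at an adjusted p below 0.05. The common dispersion was 0.002566. Standard errors were derived from the F statistic (the size of the log2 change over the root of F) and understate the error of genes with few counts. Levels are compared between genes on TPM only. The model was tested on simulated data before use. The smallest p of an exact permutation test of 3 against 3 libraries is 0.1. Intervals cover counting error only.

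The members, the gene lists and the comparisons were chosen with earlier results of these data known. Named members were, per comparison, up to 12 called members (8 for the difference between backgrounds) with at least 1 CPM in one genotype, the 6 with the highest mean TPM, PRXCA and PRXCB, and, per list, up to 3 called genes. PRX72, PRX52, AT3G49960, AT5G40150, AT4G37530, RCI3, AT5G51890, the other uncalled members and the untested members with counts were added after their values were seen. The upstream window is 250 bases before the RefSeq gene start, and coding identity is between RefSeq coding sequences. Both replace a promoter table and protein features that were planned. Alternatives were RLE and total-count scaling, no filter or a floor of 1 CPM in 3 libraries, limma 3.58.1 on log2(TPM + 1) and log2(TPM + 0.1), DESeq2 1.42.0, 2 groups only, a replicate block and each library left out.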

Additional observations from a re-analysis of the deposited data

Results flagged for a closer look

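For 7 members the effect of the cdk8-1 mutation differed between the jazD and the Col-0 background, tested as a difference of log2 changes in the edgeR model over 12 libraries (the change in jazDcdk8-1 against jazD minus that in cdk8-1 against Col-0). The difference was -3.73 for AT4G08780 (adjusted p = 0.00331), -1.42 for AT4G37520 (adjusted p = 0.000199), -0.91 for AT2G37130 (adjusted p = 0.00045), -0.88 for AT5G58390 (adjusted p = 1.33e-05), -0.84 for PRXCA (adjusted p = 1.92e-05) and -0.35 for PRXCB (adjusted p = 0.0131, lost with both limma fits), and in these 6 genes the mutation had a more negative effect where the JAZ genes were mutated. For AT1G71695 it was 0.22 (adjusted p = 0.0302), and this call was lost in 7 of the 12 fits that left out a library. AT4G08780 was tested only because its jazD libraries reached the filter, which favoured a negative difference. For PRXCA the fall was present in both backgrounds, for PRXCB a rise in the Col-0 background (log2 0.47) stood against a difference of 0.12 in the jazD background that did not pass, and for AT2G37130 a rise (log2 0.59) stood against a log2 change of -0.32, a call lost without jazD replicate 2 and with both limma fits (log2 -0.17, adjusted p of up to 0.303). In all genes tested, 8.16% had a positive and 8.39% a negative difference.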

How the results depend on the processing

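Members rising in jazDcdk8-1 against jazD numbered 2, but 5 with total-count scaling, 8 with limma on log2(TPM + 1) and 8 on log2(TPM + 0.1). The TPM fits moved the median of all genes to 0.13 and 0.15 in that comparison (0.00 with TMM). Leaving out a library, members rising numbered 3 to 6 in cdk8-1 against Col-0 (3 without cdk8-1 replicate 1), 12 to 15 in jazD against Col-0, 2 to 3 in jazDcdk8-1 against jazD, 7 to 12 in jazDcdk8-1 against Col-0 (7 without jazDcdk8-1 replicate 3) and 0 to 2 for the difference between backgrounds. Members falling numbered 7 to 10, 2 to 4, 9 to 13, 7 to 11 and 6 to 7 in the same order of comparisons. Of the member counts under an alternative, 195 stayed within 1.5 times and 13 did not. No called difference of a named member reversed. Among the values of 21 named members, 2053 kept their side of the threshold, 37 gained a call and 89 lost one, 36 of them in cdk8-1 against Col-0 and 33 in jazDcdk8-1 against Col-0.

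The replicate numbers did not pair the samples: deviations of same-numbered libraries correlated at -0.058 to 0.051. With a replicate block the members rising and falling were 5 and 10 in cdk8-1 against Col-0, 13 and 3 in jazD against Col-0, 2 and 11 in jazDcdk8-1 against jazD, 11 and 9 in jazDcdk8-1 against Col-0, and 1 and 7 for the difference between backgrounds. Depth limits the 37 members below the filter, for which differences were mostly not detectable at these totals.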

Other observations

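One peroxidase outside the function text went against the members that rose in jazD. AT5G06720, labelled peroxidase 2 in the deposited table, had 1.78, 2.25 and 1.99 CPM in the jazDcdk8-1 libraries and 0.654, 0.934 and 1.07 in jazD, with 3.79, 2.64 and 2.69 in cdk8-1 and 1.71, 2.71 and 2.1 in Col-0. The jazD libraries were the lowest, without overlap. The gene was 2.46-fold lower in jazD than in Col-0 (log2 -1.30 ± 0.26, edgeR adjusted p = 0.000362) and 2.27-fold higher in jazDcdk8-1 than in jazD (log2 1.19 ± 0.26, adjusted p = 0.00125), and both calls held in every alternative run. AT3G17070, also outside that text, was 1.29-fold lower in jazDcdk8-1 than in jazD (adjusted p = 0.00959), a call lost in 3 alternatives.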
